A study of Mus musculus with 24 samples.

Results

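The genes described are 10 genes of MHC class I antigen presentation, measured in the distal jejunum of mice: the heavy chains H2-K1, H2-D1, H2-T23, H2-T3, H2-Q1 and H2-Q2, the light chain B2m, the peptide transporter subunit Tap1, and the immunoproteasome subunits Psmb8 and Psmb9. They were taken by gene name from the deposited tables, where each of the 10 names matched 1 of 56691 rows. Every member passed the filters on low values in every comparison, and the lowest raw count of any of them in any library was 172 (H2-Q1). The 24 libraries, 3 mice in each of 8 groups, came from wild type (WT) males, WT females, Ptk6-/- males and Ptk6-/- females, each on regular water (control) or on drinking water with 100 mM succinate for 7 days. Ptk6 encodes an intracellular tyrosine kinase of epithelia, and the knockout is germline, so the deletion is in every cell of the animal. The strain had been backcrossed into C57BL/6. Tissue was taken at an age of 9 to 11 weeks. Ages were matched between groups, and a single colony supplied the mice, from several litters. Whole tissue was sequenced, so a lower level can mean fewer cells of a type or less RNA per cell, and these cannot be told apart.

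MHC class I molecules show peptides from inside a cell to CD8 T cells and natural killer cells. Proteasomes cut proteins into peptides, the transporter associated with antigen processing (TAP) carries the peptides into the endoplasmic reticulum, and there they fill the groove of a heavy chain that has paired with beta 2-microglobulin. Interferon gamma exchanges catalytic proteasome subunits for the immunoproteasome forms and raises the other parts of the pathway. In the small intestine enterocytes make class I too, and the nonclassical heavy chain encoded by H2-T3 is known there as the thymus leukemia antigen, which binds CD8 alpha on intraepithelial lymphocytes.

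All members but B2m lie on chromosome 17, in the major histocompatibility complex. In the coordinates of the deposited table, which the submitters' processing notes give as GRCm39, they run from H2-K1 (chr17:34214991-34219321, minus strand) through Psmb9 (chr17:34400961-34406738, minus), Tap1 (chr17:34406527-34416199, plus), Psmb8 (chr17:34416695-34420428, plus), H2-D1 (chr17:35481706-35486475, plus), H2-Q1 (chr17:35539381-35544075, plus), H2-Q2 (chr17:35561218-35565738, plus) and H2-T23 (chr17:36340665-36343747, minus) to H2-T3 (chr17:36496464-36501179, minus). B2m lies at chr2:121978167-121983564 on the plus strand. The heavy chains are close copies of one another, and a read that fits several of them may have been counted to any, so single heavy chain levels are uncertain. Psmb9 and Tap1 overlap on opposite strands at their 5' ends. The libraries were stranded, but whether the counting used strand is not given in the sources used here.

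Promoter windows from RefSeq on GRCm38.p6, a different build from that of the gene positions above, were available for 9 of the 10 members (250 bases before the start of transcription to 50 after), with 2 windows for H2-K1. They are shown because the members differ in which letters they hold. The core of the element bound by interferon regulatory factors (AANNGAAA, or TTTCNNTT on the other strand) was present for 6 of the 9 members, H2-K1, H2-D1, H2-T23, H2-T3, H2-Q2 and B2m, beside 23.9% of all 32851 windows of this length. In H2-K1 and H2-D1 a stretch of 60 bases around it was the same at 59 positions. The stretches around the first match follow, each 5' to 3' on the gene's own strand, with the core in capitals.
H2-K1: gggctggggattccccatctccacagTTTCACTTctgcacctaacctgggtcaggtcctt
H2-D1: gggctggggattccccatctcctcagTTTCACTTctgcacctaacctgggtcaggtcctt
H2-T3: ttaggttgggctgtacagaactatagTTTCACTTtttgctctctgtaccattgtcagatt
H2-T23: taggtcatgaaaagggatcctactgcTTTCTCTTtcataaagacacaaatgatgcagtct
H2-Q2: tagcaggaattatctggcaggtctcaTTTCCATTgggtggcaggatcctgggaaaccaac

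The 5 stretches lie at chr17:34000404-34000463 (minus) for H2-K1, chr17:35262918-35262977 (plus) for H2-D1, chr17:36190244-36190303 (minus) for H2-T3, chr17:36032792-36032851 (minus) for H2-T23 and chr17:35342195-35342254 (plus) for H2-Q2. Outside H2-K1 and H2-D1 the heavy chains shared little beyond the core, with 23 of 60 positions alike between H2-K1 and H2-T3, and 14 of 60 between H2-Q2 and H2-T3. The B2m window (chr2:122147437-122147736, plus) held the core in the other orientation, in capitals here.
B2m: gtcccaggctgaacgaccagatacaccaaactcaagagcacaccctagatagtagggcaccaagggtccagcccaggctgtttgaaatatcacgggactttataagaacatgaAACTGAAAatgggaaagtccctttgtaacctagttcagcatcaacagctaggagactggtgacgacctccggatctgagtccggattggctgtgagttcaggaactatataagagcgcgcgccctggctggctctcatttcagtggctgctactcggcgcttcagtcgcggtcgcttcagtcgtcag

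The windows of Tap1, Psmb9 and Psmb8 did not hold these letters. Tap1 and Psmb9 are transcribed away from each other, and their windows cover the same DNA over 275 bases, so 1 of them is printed (Tap1, chr17:34187306-34187605, plus) with the CCAAT box in capitals. That box, CCAAT or ATTGG, was present for 7 of the 9 members beside 37.4% of all windows. A match is a description of the sequence and not evidence of a bound site.
Tap1: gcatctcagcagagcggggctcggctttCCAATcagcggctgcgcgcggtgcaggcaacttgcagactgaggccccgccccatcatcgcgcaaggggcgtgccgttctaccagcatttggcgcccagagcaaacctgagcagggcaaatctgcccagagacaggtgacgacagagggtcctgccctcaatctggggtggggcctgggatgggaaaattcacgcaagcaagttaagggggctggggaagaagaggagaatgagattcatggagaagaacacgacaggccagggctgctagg

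Library totals lay between 8080321 and 52824743 counts with a median of 43017686. Ptk6 was between 284 and 2405 counts in the 12 WT libraries and between 7 and 61 in the 12 knockout libraries. Markers of enterocytes were high throughout, with the 8 of them summing to between 12890 and 48910 CPM (counts per 1000000 counts of the library after TMM scaling). In all, 3 libraries stood apart from the rest. In male WT control replicate 1 the ribosomal transcript Rn18s-rs5 took 51.2% of the counts, and in male Ptk6-/- succinate replicate 1, the shallowest library, it took 29.7%. In female WT succinate replicate 2 the 6 heart muscle markers summed to 17330 CPM, against at most 210.6 in any other library, and 4 Y-linked genes had 2291 counts against at most 42 in the other females. For the comparisons that include these libraries, the count of members in each direction and their median are given with and without them. Levels within a gene are given as CPM, whose TMM scaling sets aside such dominant transcripts, and levels between genes as deposited FPKM, fragments scaled by gene length and by the mapped total, which does not.

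On the FPKM scale B2m was the most abundant member, with a median of 1139 over the 24 libraries (range 159 to 2726). It was followed by H2-K1 with a median FPKM of 460 (205 to 999.2) and H2-D1 with 369 (102 to 645), the pair of classical heavy chains of this strain. Within each library these 3 genes held the first 3 places in all 24 cases, although their ranges over libraries overlapped. H2-Q2 had a median FPKM of 149 (14.1 to 218), H2-T23, the Qa-1 heavy chain that is a ligand of natural killer receptors, 87.0 (27.2 to 182), and H2-T3 56.1 (14.2 to 68.6). Psmb8 (25.8), H2-Q1 (24.6), Tap1 (12.5) and Psmb9 (10.5) made up the lower end by median FPKM, and here Psmb8 and H2-Q1, and Tap1 and Psmb9, lay within each other's ranges. The range within a gene was widest for Psmb8, 7.99-fold between the lowest and highest CPM, and for B2m, 7.55-fold, and narrowest for H2-D1, 3.10-fold. The highest Psmb8 value came from male Ptk6-/- succinate replicate 1, and without that library the Psmb8 range was 6.30-fold. That library, with 29.7% ribosomal counts, also held the lowest FPKM of every member but Psmb8. Without it the lowest FPKM was, for example, 419 for B2m and 35.2 for H2-Q2.

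**Figure D1:**
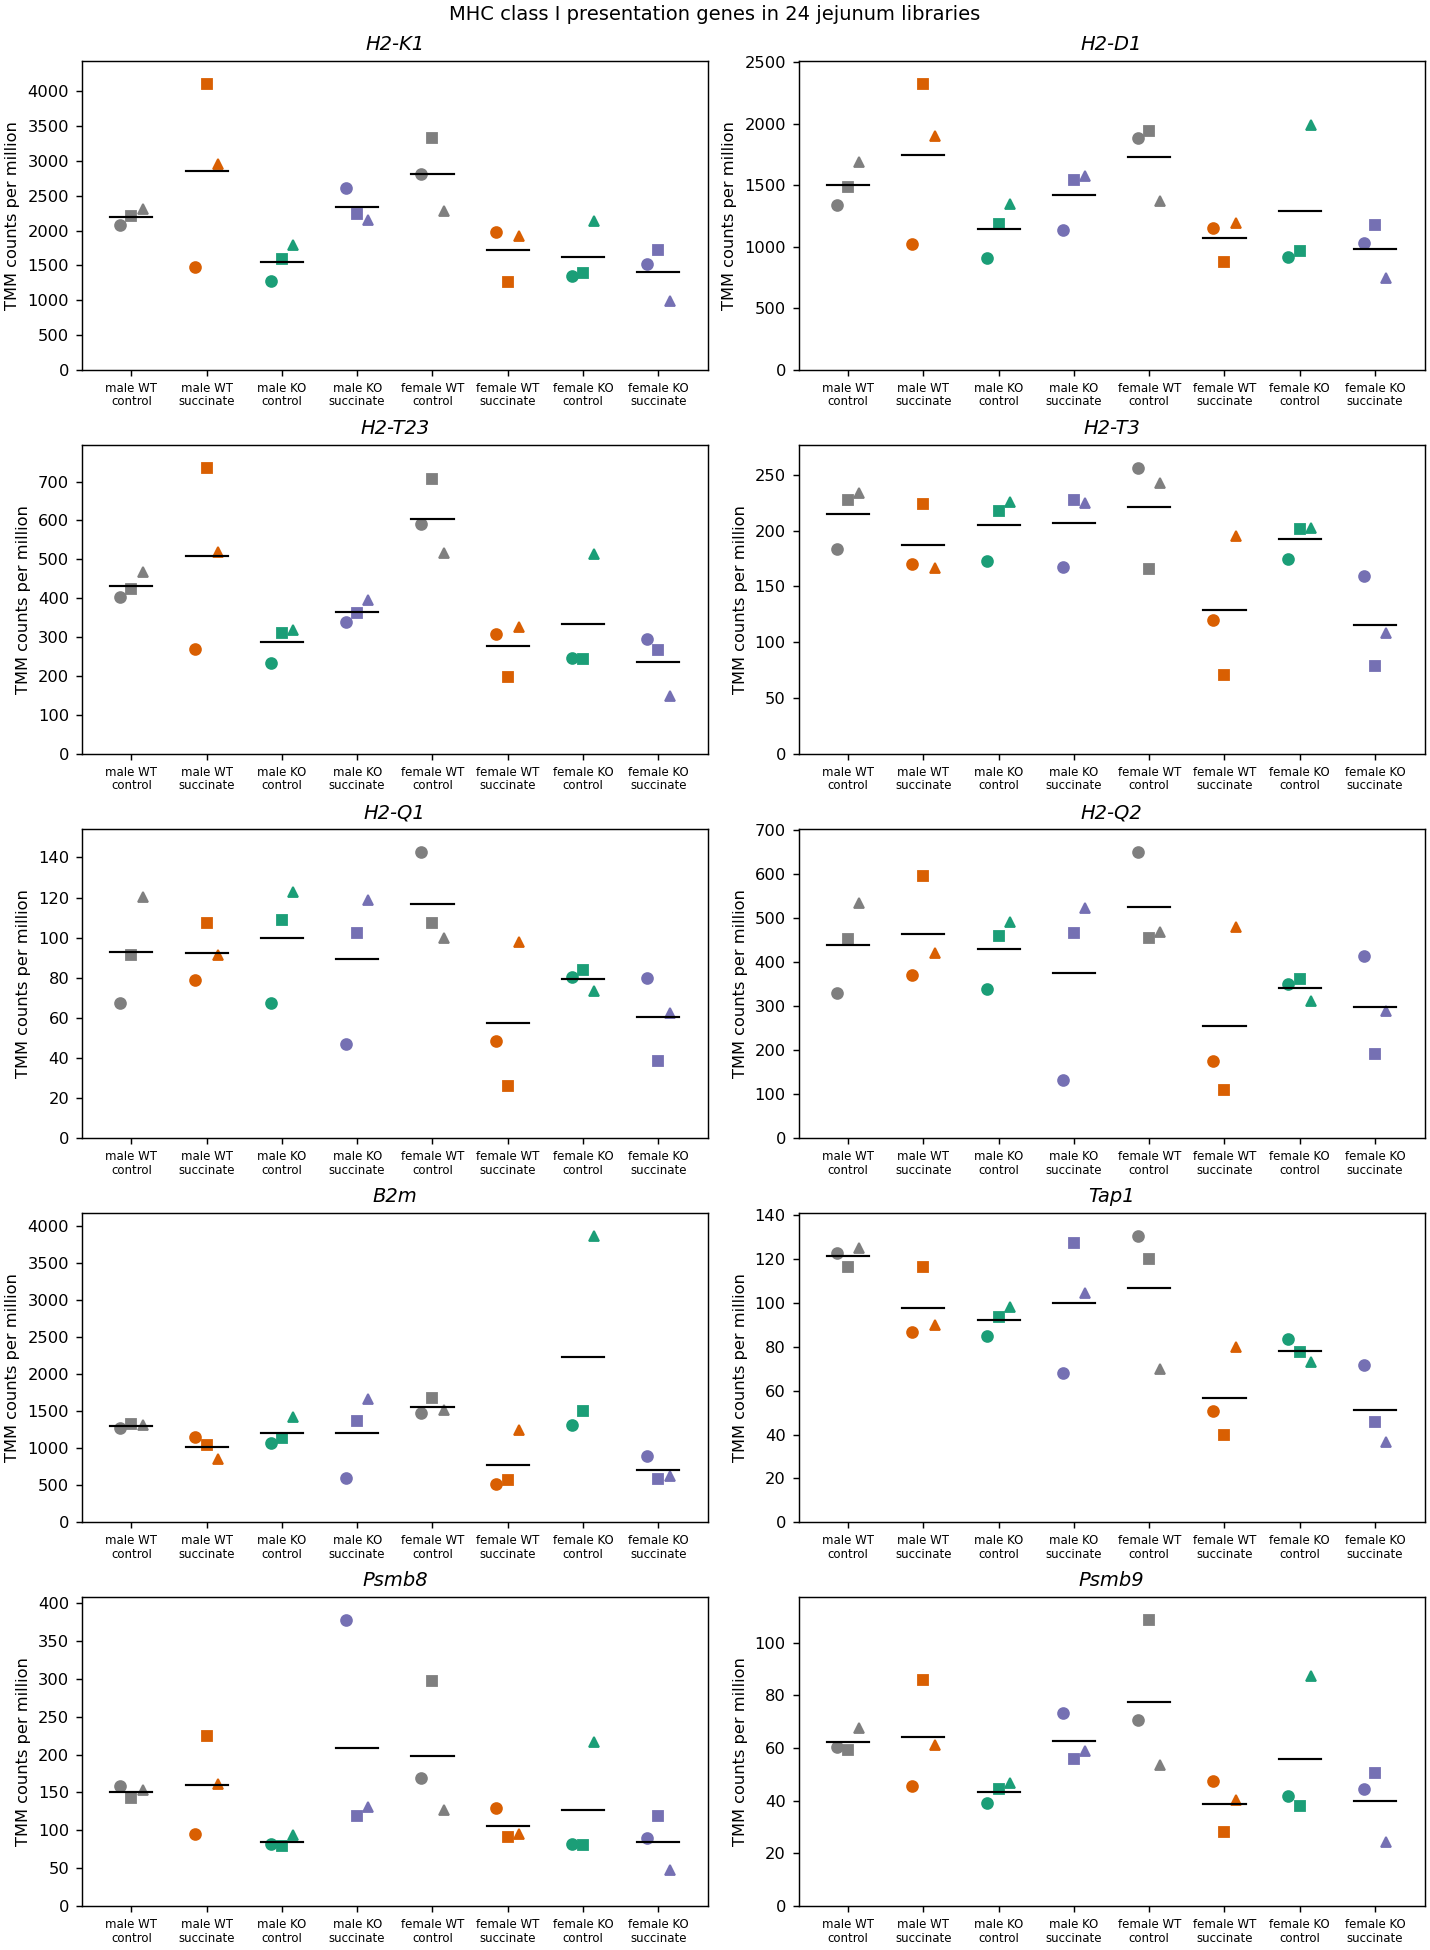
Levels of the 10 members in each library, in TMM-scaled CPM on linear axes that start at 0; circles, squares and triangles are replicates 1, 2 and 3 of a group (numbers that name mice and do not pair them) and the black bar is the mean of 3. Control males separate by genotype for Psmb8 (142 to 159 in WT, 79.7 to 93.8 in Ptk6-/-), and single libraries carry the extremes, such as B2m at 3864 in female Ptk6-/- control replicate 3.

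The members were compared between groups in 15 ways: loss of Ptk6 within each sex and treatment, succinate within each sex and genotype, the means over the 24 libraries, and 4 interactions. A gene was called at an adjusted p under 0.05 with at least a 2-fold change (edgeR's quasi-likelihood test, Benjamini-Hochberg adjustment over all genes tested). None of the 10 members was called in any of the 15. At an unadjusted p under 0.05 there were 5 members for loss of Ptk6 in control males, 4 for succinate in WT females, 2 for succinate in Ptk6-/- females, 2 for succinate in Ptk6-/- males, 3 for the mean effect of succinate, 2 for the mean effect of Ptk6 loss, 2 for sex, and 0 in the other 8 comparisons. Those for succinate in Ptk6-/- males were higher and the others lower. The share of all genes at that threshold in the same direction was 5.84% for succinate in Ptk6-/- females, 5.66% in Ptk6-/- males, 6.94% for the mean effect of succinate, 7.52% for that of Ptk6 loss and 6.63% for sex. DESeq2 called 1 member, B2m for succinate in Ptk6-/- females, and none in the other 14 comparisons. Limma on log2(FPKM + 1) called none. Shares of all genes are given for edgeR with all libraries only, so member counts from other fits have no such background. By edgeR the share of all genes called was 0.739% for loss of Ptk6 in control males and 0.0158% in control females. It was 0% in succinate males and in succinate females. For succinate it was 0% in WT males, 0% in Ptk6-/- males, 0% in WT females and 0.0879% in Ptk6-/- females. Over the 24 libraries it was 0.0184% for Ptk6 loss, 0.728% for succinate, 0.36% for sex and 0% for each of the 4 interactions. Few genes of any kind were called in these comparisons.

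**Figure D2:**
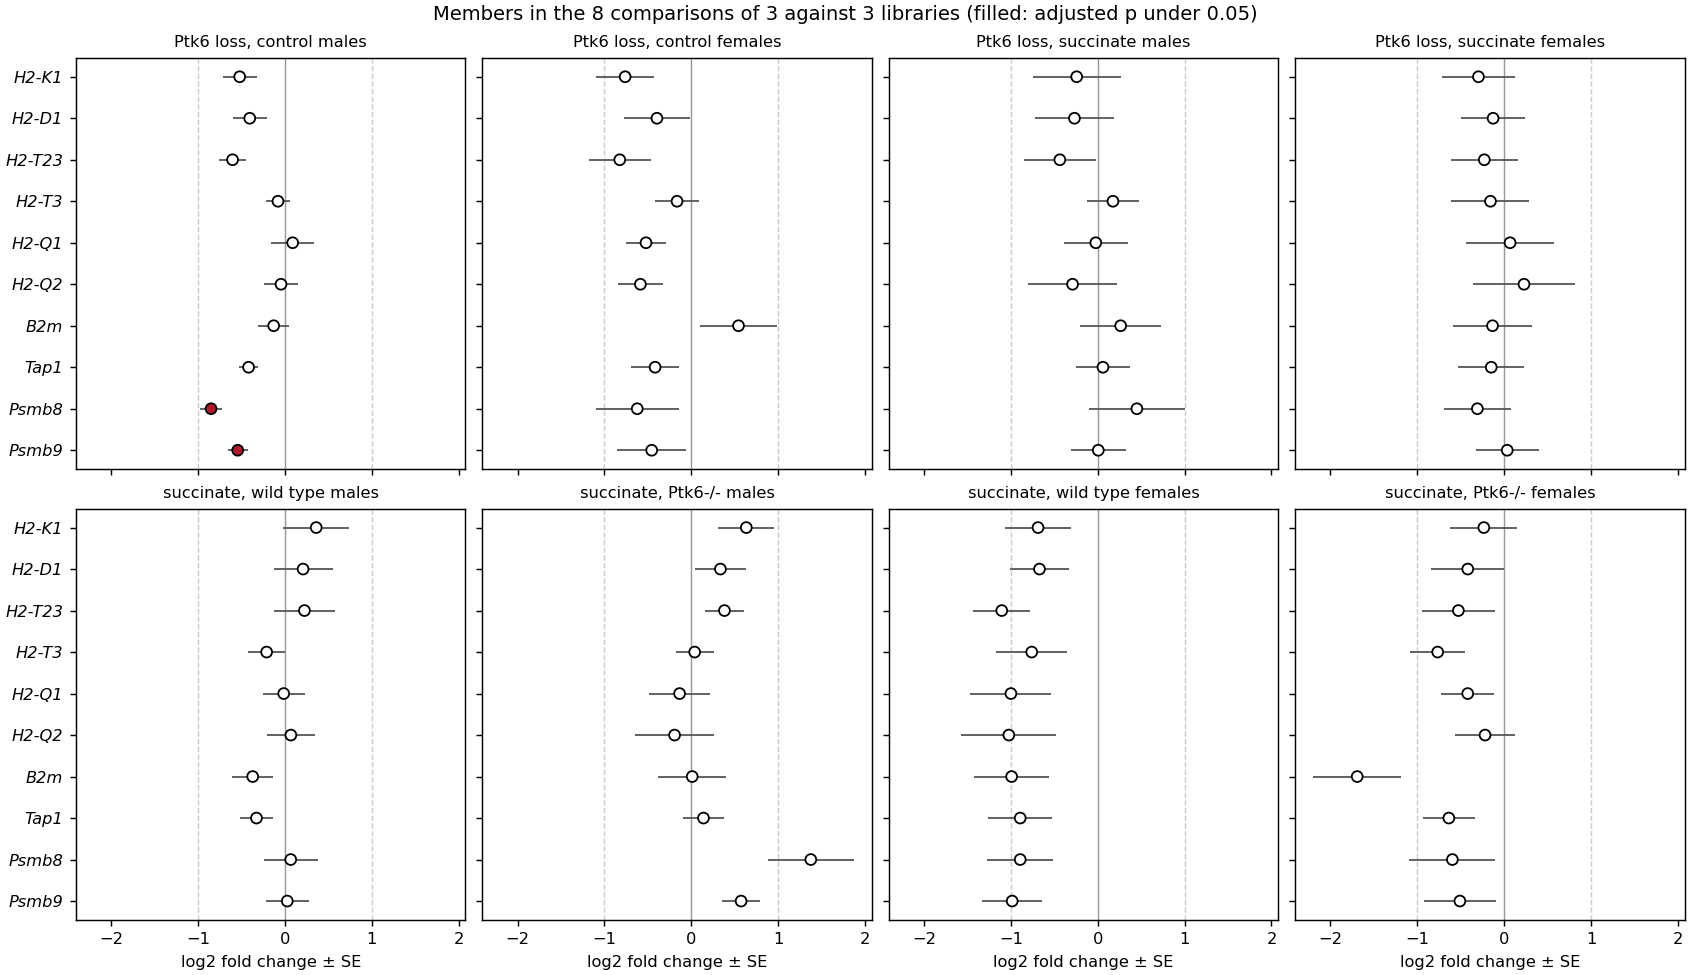
Log2 fold changes with standard errors for the 10 members in the 8 comparisons of 3 libraries against 3, with dashed lines at a 2-fold change and filled points for an adjusted p under 0.05 (edgeR). Psmb8 and Psmb9 in control males are the 2 filled points; in WT females all 10 points for succinate lie between -0.67 and -1.10.

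The first question was whether loss of Ptk6 alone moved the pathway. In control males the immunoproteasome subunits were lower in Ptk6-/- mice. Psmb8, the beta 5i catalytic subunit, was 159, 142 and 153 CPM in the 3 WT males and 82.0, 79.7 and 93.8 in the 3 Ptk6-/- males. The groups did not overlap, and the log2 fold change was -0.85 ± 0.12 (SE, adjusted p = 0.0262 by edgeR, short of a 2-fold change). Psmb9, the beta 1i subunit, was 60.4, 59.4 and 67.7 CPM in WT and 39.2, 44.4 and 46.7 in Ptk6-/- males. It fell by 0.54 ± 0.11 on the log2 scale (SE, adjusted p = 0.0418 by edgeR). These were 2 of 10 members past the adjusted p with no demand on fold, where 4.23% of all genes passed. With a replicate block 0 members passed, and with one fit of all 24 libraries 0 passed as well.

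Tap1, whose start lies beside that of Psmb9, was 123, 117 and 125 CPM in WT males and 85.0, 93.7 and 98.1 in Ptk6-/- males. The groups were again apart, with a log2 fold change of -0.42 ± 0.11 (SE, adjusted p = 0.0679 by edgeR). Among the heavy chains H2-T23 was 402, 425 and 467 CPM in WT and 234, 311 and 318 in Ptk6-/- males, a log2 fold change of -0.60 ± 0.15 (SE, adjusted p = 0.0614). H2-K1 was 2078, 2214 and 2310 CPM in WT and 1269, 1595 and 1799 in Ptk6-/- males, with a log2 fold change of -0.52 ± 0.20 (SE, adjusted p = 0.144). Neither of these passed the adjusted threshold, but for both the lowest WT mouse lay above the highest Ptk6-/- mouse. DESeq2 put all 5 of these members past an adjusted p of 0.05 (0.0126 for Tap1, the highest, and 1.414e-07 for Psmb8, the lowest). The share of all genes past it by DESeq2 is not given here, so this count has no background beside it. Altogether 5 of the 10 members were lower without overlap, against 14.9% of all genes, and 5 were lower at an unadjusted p under 0.05, against 12.5%.

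For the other members the control male groups overlapped, with H2-D1 at a log2 fold change of -0.40 ± 0.20 (SE, adjusted p = 0.248 by edgeR). B2m was 1268, 1325 and 1308 CPM in WT and 1064, 1133 and 1421 in Ptk6-/- males, H2-Q1 and H2-Q2 overlapped broadly, and H2-T3 was 184 to 233 in WT and 173 to 225 in Ptk6-/- males. Of the 10 members 9 were lower and 1 higher, and their median log2 fold change was -0.41, beside 0.02 over all genes. Without male WT control replicate 1 all 10 were lower with the median at -0.41 as well, and the same 2 members passed the adjusted p. Psmb8 and Psmb9 both lost the adjusted p when male WT control replicate 2 or 3, or Ptk6-/- control replicate 2 or 3, was left out, and Psmb9 also without Ptk6-/- control replicate 1. On deposited FPKM the median was 0.02 with all 6 libraries and -0.39 without WT replicate 1, the library with 51.2% ribosomal counts. With a gene length offset 6 members were lower and 4 higher (median -0.34), and 1 passed the adjusted p. With no filter on low counts 9 were lower and 1 passed.

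The fall in control males was not limited to members. The constitutive proteasome, the standard particle with the 14 alpha and beta subunits that Psmb8 and Psmb9 partly replace, had lower values for all 14 of its genes, and 8 fell at an adjusted p under 0.05 (median log2 fold change -0.56). Psma5 (-0.75 ± 0.13, SE), Psma7 (-0.64 ± 0.11) and Psmb1 (-0.69 ± 0.12) were among the 8 (adjusted p = 0.0311, 0.0311 and 0.0303 by edgeR). Psme1 and Psme2, which form the interferon-induced activator cap of the proteasome, fell by 0.68 ± 0.14 and 0.77 ± 0.14 on the log2 scale (SE, adjusted p = 0.0423 and 0.0339), the only 2 of 14 further genes of class I assembly that passed. Of 13 other class I heavy chain genes, 1 fell past the adjusted p, H2-T22 (-0.60 ± 0.11, SE, adjusted p = 0.0355). Of 10 class II genes 9 were lower and 5 fell past the adjusted p. Among the 5 were H2-Eb1 (-0.90 ± 0.14, SE, adjusted p = 0.0291) and H2-Aa (-0.80 ± 0.15, SE, adjusted p = 0.035).

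Genes of interferon signalling were split in direction. Of 27 measured, 13 were lower and 14 higher, the median log2 fold change was 0.01, and 1 passed the adjusted p, the kinase Jak1, which was higher in Ptk6-/- males (0.54 ± 0.10, SE, adjusted p = 0.0356 by edgeR). Without male WT control replicate 1 the same lists gave 8 of 14, 2 of 14, 1 of 13 and 4 of 10 genes lower past the adjusted p, in the order constitutive proteasome, assembly, heavy chains and class II. With WT control replicate 2 or 3, or Ptk6-/- control replicate 2 or 3, left out each of these counts was 0.

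Markers of several cell types lay apart between the same groups of control males. T cell markers summed to 84.5 to 104 CPM in WT and 75.3 to 81.4 in Ptk6-/- control males, with none of the 8 at 0, and enterocyte markers to 23110 to 23600 and 12890 to 20520. Gene by gene 5 of the 8 enterocyte markers were higher and 3 lower in this comparison (median 0.13 on the log2 scale). Of the 8 T cell markers 7 were lower, 4 of them at an unadjusted p under 0.05, and none passed the adjusted p (median -0.55). The 4 goblet cell markers summed to 7409 to 8362 CPM in WT and 10100 to 12870 in Ptk6-/- control males, without overlap. Gene by gene they were split, with 2 higher, of which the mucin gene Muc2 was called (log2 fold change 1.31, adjusted p = 0.0378 by edgeR), and 2 lower, of which the trefoil factor gene Tff3 had an unadjusted p under 0.05 (-0.78, adjusted p = 0.0571). The 4 erythroid markers summed to 99.2 to 126 and 63.0 to 90.5 CPM, without overlap. The 4 markers of Paneth cells, the antimicrobial cells of the crypt base, summed to 10400 to 12280 CPM in WT and to 11300, 3739 and 4490 in Ptk6-/- control males, and all 4 were lower, 2 at an unadjusted p under 0.05 (median -0.92). The part of these cell markers in the result was not tested.

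**Figure D3:**
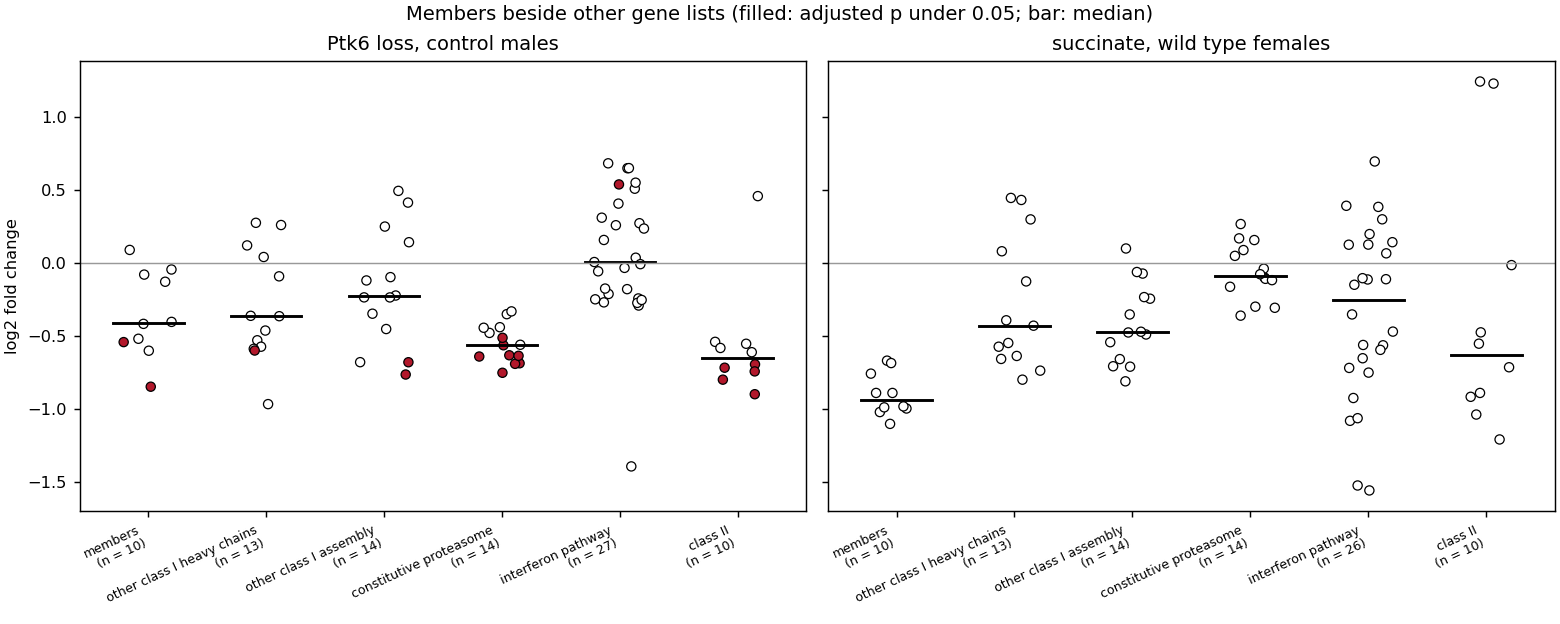
Log2 fold changes of the members beside 5 other gene lists, each point a gene, filled for an adjusted p under 0.05 (edgeR), with a bar at the median of the list. In control males the constitutive proteasome (median -0.56) and class II genes (-0.65) lie at or below the members (-0.41); for succinate in WT females the members (-0.94) lie lowest and no point is filled.

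In control females 9 of the 10 members were lower in Ptk6-/- mice, with a median log2 fold change of -0.49 beside 0.04 over all genes, and the mice of a group lay further apart than in males for H2-T23 and B2m. H2-T23 was 591, 705 and 515 CPM in WT and 248, 244 and 514 in Ptk6-/- females, with a log2 fold change of -0.82 ± 0.36 (SE, adjusted p = 0.451 by edgeR). The third Ptk6-/- mouse lay next to the WT mice, and without it H2-T23 fell by 1.24 on the log2 scale with an adjusted p of 0.0275 (edgeR, 2 libraries against 3). Without that mouse all 10 members were lower, with a median of -0.66, and 2 passed the adjusted p. The share of all genes passing in that reduced fit is not given here, so the 2 have no background. B2m was 1469, 1680 and 1508 CPM in WT and 1316, 1496 and 3864 in Ptk6-/- females. The high mean of the knockouts came from that one mouse, so the B2m log2 fold change of 0.54 ± 0.45 (SE, adjusted p = 0.669) became -0.09 without it. In 4 members, H2-K1, H2-T23, H2-Q1 and H2-Q2, levels were lower in Ptk6-/- control females without overlap, against 10.3% of all genes. The constitutive proteasome genes were lower for 14 of 14 (median -0.55), 2 of them at an unadjusted p under 0.05. Other class I heavy chains were lower for 8 of 13 (median -0.29) and further assembly genes for 8 of 14 (-0.12). Class II genes were split, with 5 lower and 5 higher (median -0.003). Enterocyte markers summed to 34610, 40550 and 40840 CPM in the WT control females, and to 13370, 15760 and, in the third mouse, 45430 in the Ptk6-/- control females. The 5 lung markers summed to 2.54, 2.55 and 3.29 CPM in WT, with 3 or 4 of them at 0 in each library, and to 11.8, 12.7 and 19.1 in Ptk6-/- control females, with none at 0. One of the 5, the club cell secretoglobin Scgb1a1, was called higher (adjusted p = 0.0211 by edgeR). In the other females the lung markers summed to 17.4 CPM in WT succinate replicate 3, to 3.45 and 4.15 in the other WT succinate mice, and to 7.55 to 11.4 in the Ptk6-/- succinate mice. B cell markers summed to 14.1 to 25.5 CPM in WT and 27.0 to 66.8 in Ptk6-/- control females, with 6 of 6 higher (median 2.42) and 3 at an unadjusted p under 0.05. Myeloid markers summed to 161 to 223 and 236 to 290 CPM, with 6 of 6 higher (median 0.65) and 1 at that threshold. The lung, B cell and myeloid sums did not overlap between the groups. The part of the proteasome, class I and class II lists and of the enterocyte, lung, B cell and myeloid markers in the result was not tested. Whether the sexes differed in the effect of Ptk6 loss was tested directly: the log2 difference (female minus male) lay between -0.66 and 0.63 for the 10 members, with adjusted p = 1 for each and no member at an unadjusted p under 0.05 (edgeR over 24 libraries).

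Under succinate the direction of the members with loss of Ptk6 depended on single libraries and on the scale. Log2 fold changes lay between -0.44 and 0.45 in males, with 5 members lower and 5 higher and a median of -0.01, and between -0.31 and 0.23 in females, with 7 lower and 3 higher. Without female WT succinate replicate 2 all 10 members were lower in females, with a median of -0.35 against -0.14 with it, and without WT succinate replicate 3 the count was 4 lower and 6 higher. Without male Ptk6-/- succinate replicate 1 the males again had 5 lower and 5 higher, with a median of -0.06. On deposited FPKM all 10 were lower in males, with a median of -0.64, and 3 were lower and 7 higher in females, with none past the adjusted p. The smallest adjusted p was 0.9999 in males and 0.944 in females (edgeR). Among the marker sums B cell (92.9 to 129 CPM in WT, 15.8 to 38.0 in Ptk6-/-), myeloid (205 to 326 and 135 to 184) and goblet cell (8323 to 9637 and 10940 to 13770) lay apart in succinate males. In succinate females those of enterocytes (23270 to 33590 and 13920 to 15870), erythroid cells (82.1 to 185 and 17.6 to 77.0) and goblet cells (8470 to 12460 and 7736 to 8468) did. Their part was not tested. Averaged over both sexes and both treatments, H2-T23 had the lowest value with a log2 fold change of -0.53 ± 0.18 (SE, adjusted p = 0.291) and H2-K1 followed with -0.47 ± 0.17 (SE, adjusted p = 0.314), while the median over the members was -0.25 and that of all genes -0.03. In this mean 5 of 6 heart markers were lower, all 5 at an unadjusted p under 0.05 (median -2.54). Female WT succinate replicate 2, with heart markers at 17330 CPM against at most 210.6 in any other library, is part of it. Taken by group, 4 of 4 tested were lower in succinate females and in control males, and 4 of 5 in control females. In succinate males 5 of 5 were higher (median 1.79). B cell markers were lower for 6 of 6, 2 at an unadjusted p under 0.05 (median -0.31). All 14 constitutive proteasome genes were lower, 4 at that threshold (median -0.35). The part of these genes was not tested. Without the 3 libraries that stood apart the member median was -0.28, with 9 of 10 lower as before. With voom and sample quality weights 6 of 10 were lower, the median was -0.18, and 5 members passed the adjusted p where edgeR passed 0. The share of all genes passing with voom is not given here, so that count cannot be set against it.

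The second question was what succinate, a tuft cell stimulus, did to the pathway. In WT females all 10 members were lower with succinate, with log2 fold changes from -0.67 to -1.10 and a median of -0.94, beside 0.03 over all genes. H2-T23 was 591, 705 and 515 CPM in control and 309, 198 and 325 in succinate WT females, a log2 fold change of -1.10 ± 0.33 (SE, adjusted p = 0.594 by edgeR). B2m was 1469, 1680 and 1508 CPM in control and 512, 564 and 1241 in succinate females, with a log2 fold change of -0.99 ± 0.43 (SE, adjusted p = 0.638). H2-Q1 was 143, 107 and 99.9 CPM against 48.5, 26.1 and 97.8, and Psmb9 70.7, 109 and 53.7 against 47.5, 28.3 and 40.5. The groups did not overlap for these 4 genes, nor for H2-K1 and H2-D1, which makes 6 of 10 members against 7.31% of all genes lower without overlap. The 4 members H2-T23, Tap1, Psmb8 and Psmb9 had an unadjusted p under 0.05 in the lower direction, against 2.49% of all genes.

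No member passed the adjusted p there, and neither did any of the 18872 genes tested, so the test could single out nothing in this comparison. The third succinate mouse was the highest of the 3 for H2-D1, H2-T23, H2-T3, H2-Q1, H2-Q2, B2m and Tap1. H2-Q2, for example, was 479 CPM in it against 175 and 109 in replicates 1 and 2. Female WT succinate replicate 2, the library with heart and Y-linked transcripts, had the lowest CPM of the 24 for H2-T3 (71.2), H2-Q1 (26.1) and H2-Q2 (109). Without it all 10 members were still lower and the median log2 fold change was -0.67. Without succinate replicate 3 the median was -1.18, and H2-Q2 was called at a log2 fold change of -1.84 (adjusted p = 0.0422 by edgeR, 3 libraries against 2).

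Other cell markers moved in the same mice. Enterocyte markers summed to 34610 to 40840 CPM in control and 23270 to 33590 in succinate WT females, T cell markers to 61.8 to 101 and 46.3 to 78.0, smooth muscle markers to 3225 to 4122 and 3859 to 7649, and tuft cell markers to 13.5 to 21.5 and 38.9 to 108. Plasma cell markers summed to 962 to 1242 and 533 to 815 CPM, with 4 of 4 lower (median -0.59), B cell markers to 14.1 to 25.5 and 25.9 to 80.2, with 6 of 6 higher (median 2.10), and lung markers to 2.54 to 3.29 and 3.45 to 17.4. The enterocyte, tuft, plasma cell, B cell and lung sums did not overlap, and those of T cells and smooth muscle did. No marker of the enterocyte or T cell list was at 0. The part of these shifts in the lower member levels was not tested.

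In Ptk6-/- females the 10 members were again all lower with succinate, by a median log2 fold change of -0.52 with -0.04 over all genes. B2m was 1316, 1496 and 3864 CPM in control and 896, 585 and 625 in succinate Ptk6-/- females. The groups did not overlap, and the log2 fold change was -1.69 ± 0.51 (SE, adjusted p = 0.385 by edgeR and 0.0271 by DESeq2). Leaving out the control mouse at 3864 CPM reduced it to -1.03, with an adjusted p of 0.30 (edgeR). Without that mouse 7 of the 10 members were lower and 3 higher, with a median of -0.18. With it kept, all 10 were lower with voom and sample quality weights (median -0.15) and on log2(FPKM + 1) (median -0.27). Without succinate replicate 3 all 10 were lower as well (median -0.28). H2-T3 was 175, 201 and 202 CPM in control and 159, 79.1 and 109 with succinate, a log2 fold change of -0.76 ± 0.32 (SE, adjusted p = 0.454). Together with Tap1 these were 3 of 10 members lower without overlap, against 10.1% of all genes. Class II genes were lower for 10 of 10, at a median of -1.02 and 1 of them at an unadjusted p under 0.05. Other class I heavy chains were lower for 11 of 13 (median -0.33) and further assembly genes for 8 of 14 (-0.36). The constitutive proteasome genes were higher for 13 and lower for 1 (median 0.42). Enterocyte markers summed to 13370 to 45430 CPM in control and 13920 to 15870 in succinate Ptk6-/- females. Tuft cell markers summed to 11.2 to 18.9 and 53.9 to 140 CPM, myeloid markers to 236 to 290 and 131 to 231, and lung markers to 11.8 to 19.1 and 7.55 to 11.4, each without overlap. Of the 8 T cell markers 7 were lower, 3 of them at an unadjusted p under 0.05 (median -0.81). Of the 27 interferon pathway genes 22 were lower, 11 of them at that threshold (median -0.82), and their sums of 1442 to 1656 and 1148 to 1286 CPM did not overlap. None of these marker or interferon genes passed the adjusted p. The part of these genes in the result was not tested.

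In males the directions with succinate were mixed, and whether the effect of succinate differed between the sexes was not tested. In WT males the log2 fold changes with succinate lay between -0.37 and 0.36, with 4 members lower and 6 higher and a median of 0.05. B2m, at 1268, 1325 and 1308 CPM in control and 1151, 1041 and 853 with succinate, and Tap1 were the 2 members lower without overlap, against 4.15% of all genes. Without control replicate 1 the count was 5 lower and 5 higher with a median of -0.02, and without succinate replicate 2, the mouse with the highest H2-K1, H2-D1 and H2-T23 of the 24, it was 9 lower and 1 higher with a median of -0.19. On deposited FPKM all 10 were higher with a median of 0.37. B cell markers (19.9 to 76.8 CPM in control, 92.9 to 129 with succinate) and tuft cell markers (15.9 to 18.7 and 20.9 to 31.9) lay apart in these mice, and their part was not tested. In Ptk6-/- males 8 of the 10 were higher, at a median of 0.24, and Psmb8 was 82.0, 79.7 and 93.8 CPM in control and 377, 119 and 131 with succinate. Its log2 fold change of 1.38 ± 0.50 (SE, adjusted p = 0.6 by edgeR) became 0.53 without succinate replicate 1, the shallow library that holds the 377. Psmb9 was 39.2, 44.4 and 46.7 CPM against 73.5, 55.8 and 58.8, a log2 fold change of 0.57 ± 0.22 (SE, adjusted p = 0.6) that became 0.37 without the same library. H2-K1, at 1269, 1595 and 1799 CPM against 2607, 2237 and 2154, had a log2 fold change of 0.63 ± 0.32 (SE, adjusted p = 0.6). With H2-T23 these were 4 members higher without overlap, against 11% of all genes. Without succinate replicate 1 all 10 members were higher, with a median log2 fold change of 0.34. On deposited FPKM the direction turned, with 9 of 10 members lower, a median of -0.45, and Psmb9 at -0.14. The erythroid markers in that library summed to 949 CPM against 103 or less in the other 5 of this comparison. Enterocyte markers summed to 12890 to 20520 CPM in control and 22200 to 48910 in succinate Ptk6-/- males, with 4 of 8 higher gene by gene (median 0.14), and myeloid markers to 204 to 396 and 135 to 184, with 6 of 6 lower (median -0.78). Smooth muscle (1719 to 2655 and 2667 to 2855) and heart markers (11.7 to 31.4 and 38.2 to 211) were also higher without overlap. So were the sums for pancreas (2.51 to 3.29 and 3.64 to 5.49) and tuft cells (at most 20.2 and at least 23.1). The pancreas value is that of the only 1 of 5 markers that passed the count filter. Of the 4 tuft genes tested 3 were higher and 1 lower (median 0.25). Among them 1 had an unadjusted p under 0.05 and none passed the adjusted p. In succinate replicate 1, 3 of the 5 tuft markers were at 0. The part of these markers was not tested.

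The interactions of genotype with succinate were tested over the 24 libraries. The log2 difference of the succinate effect (Ptk6-/- minus WT) lay between -0.27 and 1.21 in males and between -0.66 and 0.85 in females. The smallest adjusted p was 1 in males and 0.795 in females (edgeR), with no member at an unadjusted p under 0.05. For the 3-way interaction with sex the smallest was 0.902. Without the 3 libraries that stood apart the males had all 10 members above 0 with a median of 0.31 (8 of 10 and 0.21 with them), the females 8 of 10 with a median of 0.23 (9 of 10 and 0.42 with them), and the median of the 3-way interaction went from 0.12 to -0.08. On log2(FPKM + 1) the male median was -0.82 with 9 of 10 below 0, and the 3-way median was 1.24 with all 10 above 0. For the sex by genotype interaction in controls the median was -0.09 with all libraries, -0.04 without the 3, and -0.47 on log2(FPKM + 1). A difference between the genotypes in the effect of succinate was not detectable in these tests.

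Averaged over sexes and genotypes, succinate went with lower B2m, by a log2 fold change of -0.76 ± 0.21 (SE, adjusted p = 0.0889 by edgeR), Tap1 (-0.43 ± 0.15, adjusted p = 0.178) and H2-T3 (-0.43 ± 0.15, adjusted p = 0.196), while H2-K1 (0.01) and Psmb8 (-0.03) were level. DESeq2 gave B2m an adjusted p of 0.00822. Of the 10 members 9 were lower, with a median log2 fold change of -0.30 beside 0.00 over all genes, and -0.21 with 9 lower without the 3 libraries that stood apart. With voom and sample quality weights the median was -0.21 with 7 lower, and 2 members passed the adjusted p. Without female WT succinate replicate 3 B2m, Tap1 and H2-T3 each passed (adjusted p = 0.0123, 0.0385 and 0.0293 by edgeR). The share of all genes passing is given neither for the voom fit nor for this reduced fit, so these member counts have no background. Among 27 interferon pathway genes 22 were lower and 3 fell past the adjusted p, where 1.03% of all genes passed in either direction. Among them were the interferon-induced Ifit1 (-1.13 ± 0.21, SE, adjusted p = 0.00863) and Oasl2 (-0.87 ± 0.20, SE, adjusted p = 0.0377). Without the 3 libraries that stood apart none of the 27 passed, and 22 were still lower. With any 1 library left out between 1 and 5 passed. All 14 constitutive proteasome genes were higher in this comparison, at a median of 0.31 on the log2 scale and none past the adjusted p, where Psmb8 and Psmb9 were at -0.03 and -0.23. Tuft cell markers rose, with 4 of 5 called. Smooth muscle markers were higher for 5 of 6, 4 at an unadjusted p under 0.05 and 1 of them called, Actg2 (median 0.79). Of the 4 Paneth markers 3 were higher and 1 was called, Ang4 (1.75, adjusted p = 0.00452 by edgeR). Myeloid markers were lower for 6 of 6, 4 at an unadjusted p under 0.05 (median -0.45), and enterocyte markers for 5 of 8, 4 at that threshold and 2 of the others higher at it (median -0.57). The part of these markers in the lower member levels was not tested.

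The third axis of the design was sex. Averaged over both genotypes and treatments, the 10 members were lower in females, with a median log2 difference (female minus male) of -0.25 beside 0.03 over all genes, and -0.20 with 9 of 10 lower without the 3 libraries that stood apart. On log2(FPKM + 1) the median was -0.05 with 9 of 10 lower. With voom and sample quality weights it was -0.38 with all 10 lower and 4 members past the adjusted p, where edgeR passed 0. No share of all genes with voom stands beside that count. The average does not hold in each group. In WT controls 9 of the 10 mean CPM values were higher in females, H2-K1 for example at 2808 ± 523 against 2201 ± 116 (SD, n = 3), and in Ptk6-/- controls 6 of 10 were higher. With succinate all 10 were lower in females in both genotypes. Tap1 had the clearest difference, -0.54 ± 0.15 (SE, adjusted p = 0.108 by edgeR and 0.0108 by DESeq2), and H2-T3 followed with -0.36 ± 0.15 (SE, adjusted p = 0.283). B2m was level at -0.01. In control WT mice Tap1 overlapped between the sexes, at 117 to 125 CPM in males and 69.9 to 131 in females, and in succinate WT mice it was 87.0 to 116 in males and 39.6 to 80.0 in females. Cell markers differed along with sex. Tuft markers were higher in females for 5 of 5, all at an unadjusted p under 0.05 (median 1.3), and smooth muscle markers for 6 of 6, 5 at that threshold (median 0.75). Of the 4 Paneth markers 3 were higher and 1 was called, Ang4 (1.69, adjusted p = 0.0127 by edgeR). Lung markers were higher for 5 of 5 (median 4.85), 1 of them at an unadjusted p under 0.05. This did not hold in WT controls, where they summed to 2.51 to 3.48 CPM in males and 2.54 to 3.29 in females. In the other males they were at most 3.845. In the other females they were 3.45 to 17.4 in WT succinate mice and 7.55 to 19.1 in Ptk6-/- mice. T cell markers were lower for 8 of 8 (median -0.26), 1 of them at an unadjusted p under 0.05, and B cell markers for 6 of 6 (median -0.32), 0 at it. The part of these markers was not tested.

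Across the 24 libraries the members fell into 2 sets by their likeness, described with Pearson's r of log2 CPM. H2-K1, H2-D1, H2-T23, Psmb8 and Psmb9 formed one, with r between 0.72 and 0.95, led by H2-D1 with H2-T23 (0.95) and H2-K1 with H2-T23 (0.94). H2-Q1, H2-Q2, H2-T3 and Tap1 formed the other, with r between 0.76 and 0.96, and r of B2m was 0.60 to 0.71 with this set and 0.20 (Psmb8) to 0.51 (H2-D1) with the first. Between Psmb8 and H2-Q2 r was -0.01. Tap1, although it starts next to Psmb9, was more like H2-T3 (0.83) than like Psmb9 (0.63). After the mean of each group was taken out, r was 0.94 for H2-K1 and H2-T23, 0.96 for H2-Q1 and H2-Q2, 0.63 for Tap1 and H2-T3, 0.35 for Tap1 and Psmb9, and 0.52 for B2m with H2-D1 and also with Tap1. These values are descriptions over libraries that share groups and depth, and close copies such as H2-Q1 and H2-Q2 can also share reads.

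**Figure D4:**
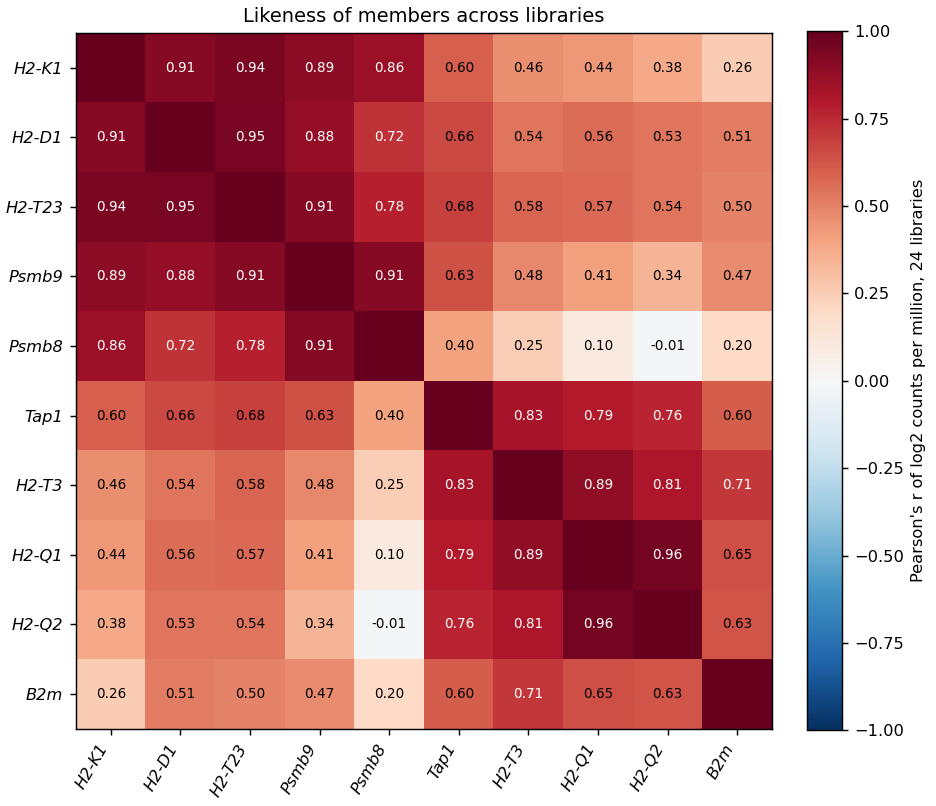
Pearson's r between members over the 24 libraries (log2 TMM-scaled CPM), colored from -1 (blue) to 1 (red). The upper left block of H2-K1, H2-D1, H2-T23, Psmb9 and Psmb8 and the lower right block of Tap1, H2-T3, H2-Q1, H2-Q2 and B2m stand out, with -0.01 between Psmb8 and H2-Q2.

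Among 15962 protein-coding genes outside the list, those most like the mean standardized level of the members were Aplp1 (Pearson's r 0.93, Spearman's rho 0.94), Relb, a subunit of NF-kappa B (0.92 and 0.90), Fabp2, the intestinal fatty acid-binding protein of enterocytes (0.92 and 0.91), Pepd, a dipeptidase (0.92 and 0.89), and Gm11127 (0.92 and 0.85). With the 2 most extreme libraries left out, female WT succinate replicate 2 and female Ptk6-/- succinate replicate 3, r for these 5 lay between 0.86 and 0.90. Among the 5 most like B2m alone were Ms4a18 (r 0.94), Cyp4f40 (0.92), Mep1b, a metalloprotease of the brush border (0.92), and Cd160, a receptor of intestinal lymphocytes that binds class I (0.91).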

How the data were processed

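Whole distal jejunum from 24 mice was sequenced as stranded poly(A) libraries. The authors trimmed reads with Cutadapt, aligned them with HISAT2 and assembled transcripts with StringTie. They estimated FPKM with StringTie and ballgown. The submitters' processing notes name GRCm39. The deposited tables hold the authors' raw count per gene and their FPKM per gene, and the program that made the counts is not given in the sources used here. The authors' columns of fold changes and p-values were not used. The study's methods used DESeq2. Here each comparison was fitted on the deposited counts with edgeR 4.0.16 (R 4.3.3, TMM scaling, quasi-likelihood test) over the genes that reached 10 counts in 3 or more libraries of that comparison, and Benjamini-Hochberg adjusted p-values were taken over all genes tested. A gene was called at an adjusted p under 0.05 and at least a 2-fold change. Comparisons of 2 groups used their 6 libraries, and means and interactions used all 24. Alternatives were DESeq2 1.42.0, its size factors, no filter, no fold threshold, a replicate block, a gene length offset, voom with sample weights and limma 3.58.1 on log2(FPKM + 1) or log2(FPKM + 0.1), one fit of all libraries, and each library left out. The fits were tested on simulated data. All members are named, with those genes of the other lists that were called or, failing that, up to 4 a list with the smallest p, and the 5 genes most alike by Pearson's r. The members and lists were chosen with earlier results of these data known. The mice are separate animals, and shared replicate numbers do not pair them. Some items that these rules would name, among them 1 further promoter motif that was searched, are not reported here.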

Additional observations from a re-analysis of the deposited data

How the results depend on the processing

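No member was called in most settings, and the exceptions follow. With no fold threshold 2 members passed for loss of Ptk6 in control males. Voom with sample weights called 1 member (H2-T23) for loss of Ptk6 in control females, and leaving out 1 library there gave 0 to 1. Leaving out 1 library gave 0 to 1 for succinate in wild type females, and DESeq2 called 1 (B2m) for succinate in Ptk6-/- females. No share of all genes is given for these other fits. The cause was not tested. The direction turned for B2m in control females, from 0.54 to -0.014 with voom and, with 1 library left out, over a range of -0.090 to 0.81. On FPKM 5 of 10 members turned in control males and 7 of 10 for succinate in Ptk6-/- males, and in the other comparisons of 2 groups 0 to 5 did. Among them were Tap1 in control males (0.018 and 0.027 on log2(FPKM + 1) and log2(FPKM + 0.1)), and H2-K1 (-0.10 and -0.10) and Psmb9 (-0.14 and -0.17) for succinate in Ptk6-/- males on the same scales, which do not set aside the ribosomal share of a library. Same-numbered libraries did not deviate together (r from -0.32 to 0.21). The replicate block left 0 members called in all 15 comparisons, and with it Psmb8 in control males had an adjusted p of 0.0539 and Psmb9 0.0724. With one fit of all 24 libraries both had an adjusted p of 0.93. Leaving out the 3 libraries that stood apart, and the FPKM fit without male wild type control replicate 1, were chosen after seeing the data. With 3 mice a group, differences under about the spread between mice were not detectable.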
